A study of Mus musculus with 4 samples.

Results

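Polycomb group proteins were followed at the transcript level through 10 genes chosen by name, *Ezh1*, *Ezh2*, *Eed*, *Suz12*, *Jarid2*, *Rbbp4*, *Rbbp7*, *Bmi1*, *Rnf2* and *Kdm6b*, out of 23946 gene symbols in the bulk RNA-seq. The choice was made because *Ezh2* was already known to be low in 1 library of this series, so the levels below are a description and carry no test. The question put to the other 9 genes was whether they follow *Ezh2*. RNA came from wild type CD-1 mice at postnatal day 3. Skeletal stem/progenitor cells, called CD51+;CD200+ cells, were sorted from the posterior frontal (PF) suture, the sagittal (SAG) suture, the coronal (COR) suture and, as a reference, the growth plate (GP) of the tibia. PF is the suture that closes in early life, whereas SAG and COR remain patent. No group carried a transgene or a treatment. By the study's methods the cells came from many mice pooled, so a library holds no measure of the spread between animals. The suture complex taken was the mesenchyme with its osteogenic fronts, dura mater and periosteum. With a single library (n = 1) for each tissue, what belongs to the tissue and what belongs to the library cannot be told apart. The cells were also selected as negative for CD45, Ter119, Tie2, Thy1, 6C3 and CD105.

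Polycomb proteins keep genes silent through marks on histones. Polycomb repressive complex 2 (PRC2) methylates histone H3 at lysine 27, with EZH2 or its paralog EZH1 as the catalytic subunit, and it needs EED and SUZ12 for activity. Polycomb repressive complex 1 (PRC1) ubiquitinates histone H2A through RING-type ligases such as RNF2, which pair with a PCGF protein such as BMI1. KDM6B removes the methyl groups that PRC2 adds. In skeletal cells EZH2 is known for holding back osteogenic differentiation, and in many tissues its transcript is more abundant in dividing cells.

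The deposited values are FPKM, fragments per kilobase of transcript scaled for library size, so genes of the same library can be compared. Comparison between libraries rests on the scaling, and the summed FPKM ran from 447174 in SAG to 550958 in PF. Each library had 11402 to 12263 genes at 1 FPKM or more. The value that a single fragment adds could be read from the lowest values, and by it the fragments of PF came to 44.5% of those of SAG, with 87.2% for COR and 83.4% for GP, provided that Cuffdiff scaled each library by its own number of fragments. From the same steps an approximate number of fragments was computed for each member, with a counting error that covers sampling of fragments only. The spread between animals is not covered, nor is the amplification of cDNA that the study's methods describe. *Itgav* and *Cd200*, the genes of the sorted antigens, were at 6.20 FPKM or more in every library. *Sparc*, at 9849 FPKM in PF, and *Col1a1* are listed at 0 in COR, so an exact 0 in these files can be a failed estimate. No member was at 0 in any library, and all 10 were above 1 FPKM in all 4.

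*Ezh2* was lowest in PF-CD51+;CD200+ cells, at 2.59 FPKM, and stood at 8.73 FPKM in COR, 14.3 in GP and 17.9 in SAG. The SAG level was 6.89 times, the GP level 5.51 times and the COR level 3.37 times the PF level. About 117 fragments lay behind the PF value and 772 to 1811 behind the others, which gives a counting error (SE) of 0.14 on the log2 scale, before the addition of 1 to each FPKM, for each comparison with PF. Below, PF/SAG stands for the level in PF over that in SAG, and likewise for other pairs, as a log2 ratio after adding 1 to each FPKM, so that low genes appear closer than they are. By this measure *Ezh2* was at -2.39 in PF/SAG, -1.44 in PF/COR and -2.09 in PF/GP. COR was also below SAG, at -0.96, or -1.03 before the addition of 1, with a counting SE of 0.062. Thus PF stood apart at the low end, SAG and GP were the nearest neighbours in the order at 0.30 in SAG/GP, and COR lay between them and PF. In bulk samples such as these, fewer cells with a transcript and less of it per cell cannot be told apart. The gene lies on mm9 chromosome 6, 47480273 to 47545340, on the minus strand.

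*Ezh1* (mm9 chromosome 11, 101052429 to 101087777, minus strand), the paralog that can replace EZH2 in PRC2, had a narrower range. It was at 4.06 FPKM in PF, 5.52 in GP, 6.47 in COR and 6.56 in SAG, which gave -0.58 in PF/SAG and -0.56 in PF/COR. PF was again the low library, and SAG and COR did not differ beyond their counting error. Since FPKM is per length, the balance of the catalytic subunits could be read within each library: the level of *Ezh2* divided by that of *Ezh1* was 0.639 in PF, 1.35 in COR, 2.59 in GP and 2.72 in SAG. PF was thus the library in which *Ezh1* had the higher level, with about 290 fragments for *Ezh1* and 117 for *Ezh2*. The transcripts differ in GC content, at 51.2% for *Ezh1* and 44.9% for *Ezh2*. With a correction for GC content, PF/SAG was -0.65 for *Ezh1* and -2.0 for *Ezh2*. Between the longest coding transcripts of these paralogs 0 words of 50 bases were shared.

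**Figure D1:**
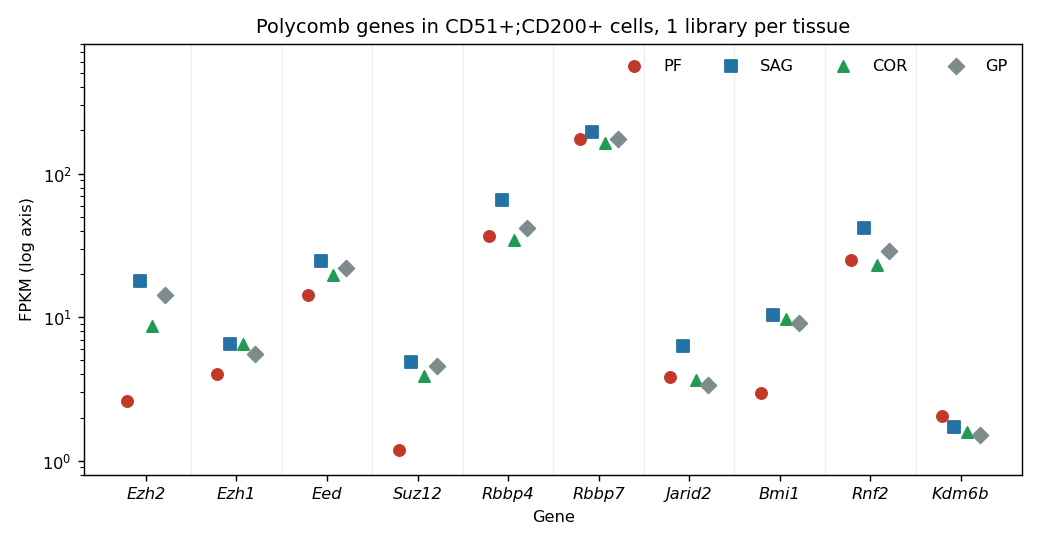
FPKM on a log axis (vertical) for each of the 10 Polycomb genes (horizontal), with 1 point per library (PF, SAG, COR and GP) and no error bar because there was 1 library per tissue. The PF point lies below the other 3 for *Ezh2*, *Ezh1*, *Eed*, *Suz12* and *Bmi1*, with the widest gap at *Ezh2* (2.59 FPKM against 8.73 or more).

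Among the core subunits of PRC2, *Suz12* had the same order of libraries as *Ezh2*. SUZ12 is the scaffold of the complex. Its gene lies on mm9 chromosome 11, 79806608 to 79847625, plus strand. The level was 1.20 FPKM in PF, 3.91 in COR, 4.60 in GP and 4.90 in SAG. The ratio was -1.43 in PF/SAG and -1.16 in PF/COR. Before the addition of 1 to each FPKM these were -2.035 and -1.71, with about 89 fragments in PF and a counting SE of 0.16 for each. *Eed* (mm9 chromosome 7, 97103166 to 97129493, minus strand), whose product binds methylated lysine 27, shared this order with smaller steps, from 14.3 FPKM in PF to 19.8 in COR, 22.0 in GP and 24.6 in SAG. Its ratios were -0.74 in PF/SAG and -0.45 in PF/COR, or -0.78 and -0.48 before the addition of 1, with counting SEs of 0.072 and 0.075. The order PF, COR, GP, SAG was found for *Eed* and *Suz12* of the other 9 members, and for 9.77% of all genes at 1 FPKM or more.

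The histone-binding subunits behaved otherwise. RBBP4 and RBBP7 are WD40 proteins that PRC2 shares with chromatin assembly and deacetylase complexes. The genes lie on mm9 chromosome 4, 128984344 to 129012614, minus strand, for *Rbbp4* and on chromosome X, 159198334 to 159217024, plus strand, for *Rbbp7*. *Rbbp4* was at 36.9 FPKM in PF, 34.6 in COR, 41.7 in GP and 65.1 in SAG. SAG alone stood apart, at -0.80 in PF/SAG and -0.89 in COR/SAG, whereas PF/COR was 0.09. *Rbbp7*, the most abundant member, was at 173 FPKM in PF, 163 in COR, 176 in GP and 195 in SAG, and its log2 ratios between any pair of libraries lay from -0.26 to 0.15, below 0 in PF/SAG (-0.17) but at 0.36 there relative to *Gapdh*. *Jarid2* (mm9 chromosome 13, 44824843 to 45017012, plus strand), an accessory subunit that helps bring PRC2 to chromatin, was at 3.85 FPKM in PF, 3.67 in COR, 3.39 in GP and 6.27 in SAG. Again SAG was the high library. PF and COR differed by 0.06 on the log2 scale, or by 0.07 before the addition of 1, within the counting SE of 0.090.

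The PRC1 pair split in the same way. *Bmi1*, a PCGF gene, lies on mm9 chromosome 2, 18598645 to 18608256, plus strand. It was at 2.97 FPKM in PF, 9.10 in GP, 9.67 in COR and 10.3 in SAG. Its ratio was -1.51 in PF/SAG, -1.43 in PF/COR and -1.35 in PF/GP. Before the addition of 1 to each FPKM these were -1.80, -1.70 and -1.62, with counting SEs of 0.11 to 0.12. COR/SAG was -0.09, and 0.17 relative to *Gapdh*, so the order of COR and SAG depended on the scaling. *Rnf2* (mm9 chromosome 1, 153316536 to 153347953, minus strand), the ubiquitin ligase, was at 25.0 FPKM in PF, 23.1 in COR, 29.0 in GP and 42.1 in SAG, which gave -0.73 in PF/SAG and 0.11 in PF/COR. Here SAG was the high library, as for *Rbbp4* and *Jarid2*. The level of *Bmi1* divided by that of *Rnf2* was 0.119 in PF and 0.245 to 0.418 in the other libraries. *Kdm6b* (mm9 chromosome 11, 69212010 to 69227177, minus strand), the demethylase, was the member highest in PF, at 2.05 FPKM against 1.52 in GP, 1.58 in COR and 1.72 in SAG. Its PF/SAG ratio was 0.17. Before the addition of 1 to each FPKM it was 0.26 in PF/SAG and 0.38 in PF/COR, each with a counting SE of 0.12.

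The promoters of *Ezh2*, *Suz12* and *Bmi1* are shown because these are the members at least 2-fold lower in PF than in both other sutures. Each is the RefSeq window of 250 bases before and 50 bases from the start of the gene, in build GRCm38.p6, read 5′ to 3′ along the gene. Capitals mark E2F-type letters (TTTCCCGC, TTTCGCGC, TTTGCCGC or TTTGGCGC) and the CCAAT box letters, on either strand; the motifs did not overlap each other in these windows. E2F factors bind such letters at many S phase genes.
*Ezh2* (chr6:47594981-47595280, minus strand): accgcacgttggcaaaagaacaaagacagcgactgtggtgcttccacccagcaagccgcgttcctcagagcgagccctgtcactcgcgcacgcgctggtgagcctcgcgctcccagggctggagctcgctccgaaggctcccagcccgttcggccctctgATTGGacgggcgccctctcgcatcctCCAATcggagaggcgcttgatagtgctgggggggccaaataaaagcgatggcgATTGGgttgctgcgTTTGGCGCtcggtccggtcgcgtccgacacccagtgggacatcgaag
*Suz12* (chr11:79992856-79993155, plus strand): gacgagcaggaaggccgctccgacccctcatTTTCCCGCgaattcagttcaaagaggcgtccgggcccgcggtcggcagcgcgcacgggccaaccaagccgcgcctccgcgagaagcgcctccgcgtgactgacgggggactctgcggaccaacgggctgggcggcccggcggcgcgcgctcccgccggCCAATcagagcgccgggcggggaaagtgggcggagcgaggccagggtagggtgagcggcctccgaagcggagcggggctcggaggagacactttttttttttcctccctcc
*Bmi1* (chr2:18676768-18677067, plus strand): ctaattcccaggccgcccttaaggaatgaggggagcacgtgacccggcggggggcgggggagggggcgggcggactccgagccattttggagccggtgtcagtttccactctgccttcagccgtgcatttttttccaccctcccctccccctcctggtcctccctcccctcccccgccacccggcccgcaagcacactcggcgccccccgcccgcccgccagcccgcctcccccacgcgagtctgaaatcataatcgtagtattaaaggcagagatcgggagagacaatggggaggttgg
*Ezh2* held TTTGGCGC beginning 3 bases after the start and CCAAT letters at 3 places, 90, 64 and 11 bases before it. *Suz12* held TTTCCCGC beginning 219 bases before the start and CCAAT letters at 61 bases before it, and *Bmi1* held neither. A window was found for 9 of the members (*Kdm6b* was not matched), and the E2F-type letters were in those of *Ezh2* and *Suz12*. Of 32851 promoter windows of this length, 2.27% held E2F-type letters, 37.4% held CCAAT letters, 0.962% held both, and 3.37% held CCAAT letters at 3 or more places. The motifs were chosen after these windows had been seen, and a match is a description of the letters.

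**Figure D2:**
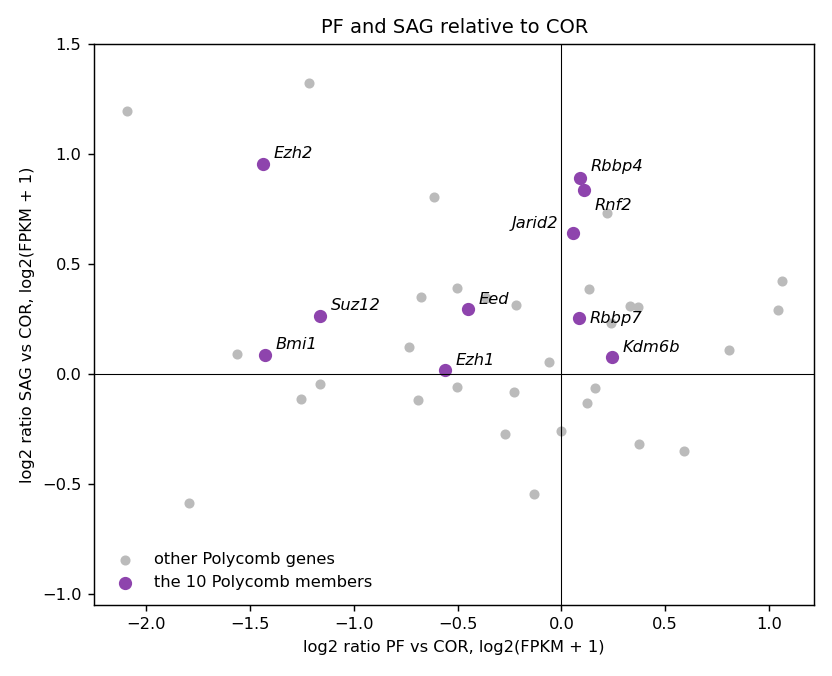
Log2 ratio of PF to COR (horizontal) against log2 ratio of SAG to COR (vertical), on the log2(FPKM + 1) scale; purple points are the 10 members, grey points the other Polycomb genes at 1 FPKM or more, and both axes share the COR library. *Bmi1*, *Suz12* and *Ezh2* lie at -1.16 or below on the PF axis, whereas *Rbbp4*, *Rnf2* and *Jarid2* lie near 0 on it and at 0.64 to 0.89 on the SAG axis.

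Counted over the sutures, 5 of the 10 members were lowest in PF (*Ezh1*, *Ezh2*, *Eed*, *Suz12* and *Bmi1*), as were 37.1% of the 13733 genes compared. SAG held the highest level of 9 members, all but *Kdm6b*, and of 33.9% of genes. The full order PF below COR below SAG was that of the same 5 members and of 21.7% of genes, and with GP added the same 5 were lowest in PF of all 4 libraries, as were 34.3% of genes. By any amount, 8 of the 9 members other than *Ezh2* were lower in PF than in SAG (49.0% of genes), 4 were lower in PF than in COR (47.7%) and 9 were lower in COR than in SAG (51.4%).

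*Ezh2*, *Suz12* and *Bmi1* were at least 2-fold lower in PF than in SAG and in COR, a pattern of 7.17% of genes. With a correction for GC content *Suz12* (-0.92 in PF/SAG, -0.82 in PF/COR) and *Bmi1* (-0.96 in PF/SAG) no longer met it, and *Ezh2* did. Taken singly, the same 3 members were 2-fold lower in PF than in SAG (18.5% of genes), than in COR (12.8%) and than in GP (14.4%). The fold used by the study, 3-fold, was applied here after adding 1 to each FPKM. Past it, *Ezh2* was the only member in PF/SAG, where 15.7% of genes passed in either direction and 9.04% were lower in PF. It was also the only one in PF/GP, where 12.0% of genes passed and 6.24% were lower in PF. Because the low *Ezh2* level chose the members, nothing is read from these counts, and the comparisons with PF share its library. After the addition of 1, no member passed 3-fold in PF/COR (11.7% of genes, 4.87% lower in PF), COR/SAG (9.25%), SAG/GP (8.66%) or COR/GP (4.4%). Before it, the SAG, COR and GP levels over the PF level were 4.10, 3.27 and 3.85 for *Suz12* and 3.48, 3.26 and 3.06 for *Bmi1*. Those of *Ezh2* were 6.89, 3.37 and 5.51, so these 3 genes were then past 3-fold in each comparison with PF. The share of all genes past 3-fold without the addition is not given here. The median log2 ratio of the 9 members other than *Ezh2* was -0.73 in PF/SAG, 0.06 in PF/COR and -0.26 in COR/SAG, beside 0.03, 0.05 and -0.02 over all genes compared. The PF/SAG median came to -0.21 relative to *Gapdh*, that of COR/SAG to -0.03, and that of PF/COR lay on either side of 0, from -0.18 to 0.26 over the alternatives. With a pseudocount of 0.1 in place of 1, *Suz12* and *Bmi1* passed 3-fold as well, at -1.95 and -1.76 in PF/SAG and -1.63 and -1.67 in PF/COR, where 27.4% and 22.8% of all genes passed.

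Likeness to *Ezh2* was measured as the Euclidean distance between mean-centred log2(FPKM + 1) values over the 4 libraries. *Suz12* was the nearest member at a distance of 0.76, with 2.66% of 13997 genes nearer, and *Bmi1* followed at 0.81, with 3.24% nearer. *Eed* came next with 14.4% of genes nearer, then *Ezh1* with 21.6%, *Rbbp4* with 22.3%, *Rnf2* with 22.8%, *Jarid2* with 33.2%, *Rbbp7* with 37.4% and *Kdm6b* with 52.3%. The nearest 5% of genes, 4.99% by number, thus held 2 of the other 9 members. Among genes at 5 FPKM or more in a library, the 5 nearest to *Ezh2* included *Zfp963*, *Fgfr1op*, *Zfp943* and *Taf1b*. *Taf1b*, a subunit of the RNA polymerase I selectivity factor, was at 2.92 FPKM in PF, 9.02 in COR, 12.9 in GP and 16.9 in SAG. *Zfp963* and *Zfp943* belong to a large zinc finger family, in which reads can be split between similar genes.

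S phase and mitosis genes were mostly low in the same library as *Ezh2*. Of 21 such genes, 19 were lowest in PF of the sutures, compared with 37.1% of all genes. In PF/SAG 20 were lower and 1 higher in PF (49.0% of all genes were lower), with 6 lower past 3-fold (9.04% of all genes) and a median log2 ratio of -1.06, or -0.58 relative to *Gapdh*. In PF/COR 19 were lower and 2 higher (47.7% of all genes were lower), with 4 lower past 3-fold (4.87%) and a median of -0.96. The 9 mitosis genes were further below (median -1.67 in PF/SAG) than the 12 S phase genes (-0.75). *Ccnb1*, which encodes the mitotic cyclin B1, was at 2.14 FPKM in PF and 15.2 to 24.9 in the others. *Birc5*, which encodes survivin, was at 11.8 FPKM in PF and 44.0 to 78.8 in the others. *Cdk1*, the mitotic kinase, was at 5.50 FPKM in PF, 11.7 in COR, 21.8 in SAG and 22.6 in GP, and *Ccna2*, for cyclin A, at 7.54 in PF and 24.6 to 33.0 in the others. PF was thus below all other libraries for each of these 4. *Pcna*, the replication clamp, *Rrm2*, a subunit of ribonucleotide reductase, and *Mcm6*, of the replicative helicase, were at -1.41, -0.86 and -0.75 in PF/SAG. *Mcm5* went the other way, at 30.1 FPKM in PF and 14.9 to 18.1 in the other libraries. The PF/SAG ratio of *Ezh2* was lower than that of 20 of these genes, with *Ccnb1* alone below it, and its PF/COR ratio was lower than that of all but 4. The part of cell division in the *Ezh2* level was not tested. 

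**Figure D3:**
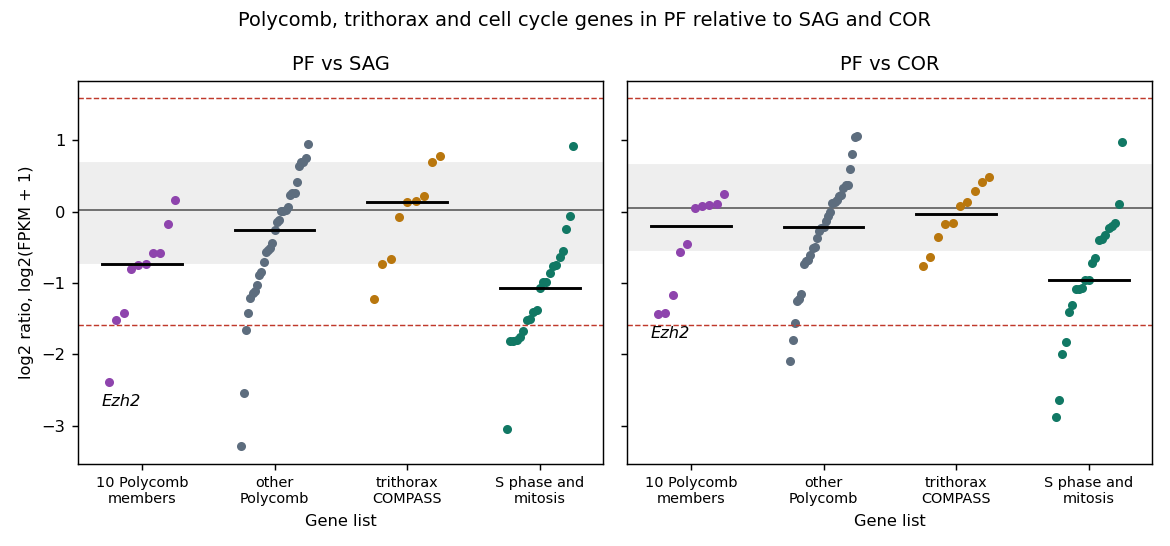
Log2 ratios on the log2(FPKM + 1) scale (vertical) in PF/SAG (left) and PF/COR (right), 1 point per gene at 1 FPKM or more in a library compared, by gene list. Black bars are list medians, the grey line and band the median and quartiles of all genes compared, and dashed lines 3-fold; the S phase and mitosis genes have the lowest median in both panels (-1.06 and -0.96), the trithorax median lies nearest to 0, and the lowest other Polycomb point is *Pcgf5*, listed at 0 in PF.

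The wider Polycomb system gave a mixed picture. Of 34 further Polycomb genes, 31 reached 1 FPKM in a suture, and 16 of these were lowest in PF (37.1% of all genes). In PF/SAG 18 were lower and 13 higher in PF (49.0% of all genes were lower), with a median log2 ratio of -0.26, which turned to 0.18 relative to *Gapdh*. In PF/COR 19 were lower and 12 higher (47.7% of all genes were lower), with a median of -0.22 that came to -0.01 relative to *Gapdh*. Past 3-fold, 3 were lower in PF/SAG and 2 in PF/COR, and none was higher. Of all genes, 9.04% and 4.87% were lower past 3-fold, close to these shares. *Pcgf5*, listed at 0 in PF, is among both. Those at 5 FPKM or more in the higher library were *Pcgf5*, *Pcgf3* and *E130012A19Rik*, the PRC2 accessory gene also called *Epop*. *E130012A19Rik* was at 0.462 FPKM in PF, 2.40 in COR, 2.49 in GP and 7.51 in SAG. *Pcgf3*, of a variant PRC1, was at 3.32 FPKM in PF, 14.0 in COR, 10.4 in GP and 8.95 in SAG. *Pcgf5* is listed at 0 in PF and was at 8.75, 3.27 and 3.77 FPKM in SAG, COR and GP. The third gene past 3-fold in PF/SAG, *Bcor*, was at 0.465 FPKM in PF and 3.21 to 3.61 in the others; it was named after its values were seen.

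By role, the 5 further PCGF genes, paralogs of *Bmi1*, were all lower in PF than in SAG, with a median log2 ratio of -1.03, where 49.0% of all genes were lower. The CBX genes, whose products bind methylated lysine 27 within PRC1, lay on the other side: 3 of the 4 that could be compared were higher in PF than in SAG, with a median of 0.72. The 4 CBX transcripts have 54.9% to 57.6% GC and those of the PCGF genes 43.7% to 54.6%. The median PF/SAG ratio of all genes at 5 FPKM or more was 0.35 and 0.57 in the GC quintiles that hold the CBX genes, and the part of GC content in the split was not tested. *Cbx6* was at 29.8 FPKM in PF, 19.4 in COR, 28.4 in GP and 15.0 in SAG. Other abundant genes differed little, such as *Phc2*, a polyhomeotic subunit, at 51.0 to 73.7 FPKM, and *Bap1*, the deubiquitinase that opposes PRC1, at 23.6 to 29.9. *Yaf2*, of variant PRC1, was at 18.1 FPKM in PF, 28.1 in COR, 32.2 in GP and 49.9 in SAG.

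The trithorax side, whose COMPASS complexes methylate lysine 4 of histone H3 and oppose Polycomb, was compared through 11 genes. In PF/SAG 4 of the 9 genes compared were lower and 5 higher in PF, where 49.0% of all genes were lower. Past 3-fold after adding 1 to each FPKM there were 0, against 15.7% of all genes in either direction. The median log2 ratio was 0.13, or 0.60 relative to *Gapdh*. The lowest ratio was -1.23 for *Kmt2c* and the highest 0.78 for *Setd1b*, both named after their values were seen. *Kmt2c* was at 1.43 FPKM in PF and 2.85 to 4.70 in the others. *Setd1b* was at 1.34 FPKM in PF and 0.367 to 0.676 in the others. *Men1*, which encodes menin, was at 33.7 FPKM in PF and 18.0 to 25.1 in the others, *Wdr5* at 17.5 FPKM in PF and 15.6 to 17.5 in the others, and *Dpy30* at 75.7 FPKM in PF, 85.0 in COR, 105 in GP and 127 in SAG. *Ash2l* was at 18.5 FPKM in PF and 22.9 to 30.0 in the others.

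Classical Polycomb targets were mostly near 0. *Cdkn2a*, the INK4A and ARF gene that BMI1 is known to repress, is listed at 0 in PF and COR with 0.319 FPKM in GP and 0.10 in SAG. Its neighbour *Cdkn2b* was at 3.50 FPKM in PF and 12.8 to 13.4 in the others, and thus lowest where *Bmi1* and *Ezh2* were lowest. Of 12 lineage regulators known as bivalent genes in embryonic stem cells, *Pax6* reached 41.6 FPKM in SAG, against 0.541 in PF, 1.11 in COR and 0.0356 in GP. *Foxa1* was at 1.37 FPKM in PF, and *Gata6* and the other 9 stayed below 1 FPKM in every library.

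Markers of other cells differed between the libraries. The summed level of 5 choroid plexus genes was 5345 FPKM in SAG, 483 in PF, 147 in COR and 10.7 in GP. *Ttr* gave 5103, 465, 141 and 9.74 FPKM of these sums. All 5 were at 1 FPKM or more in SAG and PF, against 2 in COR and 1 in GP. The sum of 5 chondrocyte genes was 3189 FPKM in SAG, 91.6 in PF, 89.5 in COR and 2115 in GP. *Acan* was highest in GP, at 59.0 FPKM against 25.9 in SAG, 23.3 in PF and 15.6 in COR. The other chondrocyte genes were highest in SAG, with *Col2a1* at 1750 FPKM there and 1731 in GP. None of these markers was at 0 in any library. SAG is also the library in which all members but *Kdm6b* were highest, *Ezh2* included. In PF the 5 leukocyte genes summed to 34.6 FPKM, of which *Lyz2* gave 30.2 and *Ptprc*, the defining one, 0.568, against 4.64 to 10.6 in the others, where 2 of the 5 were at 0. The 5 endothelial genes summed to 16.9 FPKM in SAG, 4.30 in PF, 1.18 in COR and 1.10 in GP. *Kdr* gave 14.9 FPKM of the SAG sum, whereas *Cdh5* and *Pecam1* were highest in PF and *Emcn* in GP. The 4 erythroid genes summed to 15.6 FPKM in PF and 1.81 to 1.93 in the others. Osteoblast genes summed to 3240 FPKM in COR, 1244 in GP, 1062 in PF and 248 in SAG. *Ibsp* gave 761 FPKM of the GP sum and 123 of the PF sum. *Alpl*, *Bglap* and *Runx2* were higher in PF than in GP, and *Sp7* was higher in GP. Smooth muscle and pericyte genes summed to 612 FPKM in PF, 467 in GP, 282 in COR and 63.3 in SAG. *Acta2* gave 530 FPKM of that PF sum. *Pdgfrb* was also highest in PF, whereas *Myh11* and *Rgs5* were highest in GP and *Cspg4* was lowest in PF. Neural or glial genes summed to 36.5 FPKM in PF, 56.7 in GP, 24.2 in COR and 8.19 in SAG, with *Snap25* at 0 in all but SAG. The part of such cells in the Polycomb levels was not tested.

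The ratios between sutures also followed the base composition of the transcripts. Over genes at 5 FPKM or more, the median PF/SAG ratio went from -0.48 in the quintile of genes with the lowest GC content to 0.57 in the quintile with the highest, and the median PF/COR ratio from -0.33 to 0.33. The COR/SAG median, without PF, went the same way, from -0.14 to 0.25. *Rnf2* (39.1% GC), *Bmi1* (40.2%), *Suz12* (41.6%) and *Rbbp4* (43.8%) lie in the lowest quintile. *Rbbp7* (44.7%) lies at its upper edge, *Ezh2* has 44.9% and *Kdm6b* 59.6%. Once corrected for GC content, an alternative added with the data in view, *Ezh2* was at -2.0 in PF/SAG and -1.15 in PF/COR. *Bmi1* was at -0.96 and -1.07, and *Suz12* at -0.92 and -0.82, so neither was still 2-fold lower in PF than in both other sutures. *Rnf2* was then at -0.16 and 0.46, *Rbbp4* at -0.36 and 0.40, and *Kdm6b* turned to -0.40 and -0.12. With this correction 0 of the other 9 members were among the nearest 5% of genes to *Ezh2*, with 6.60% of genes nearer than *Suz12* and 8.72% nearer than *Bmi1*. A correction for transcript length moved the ratios less, to -2.34 for *Ezh2*, -1.44 for *Bmi1* and -1.35 for *Suz12* in PF/SAG.

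**Figure D4:**
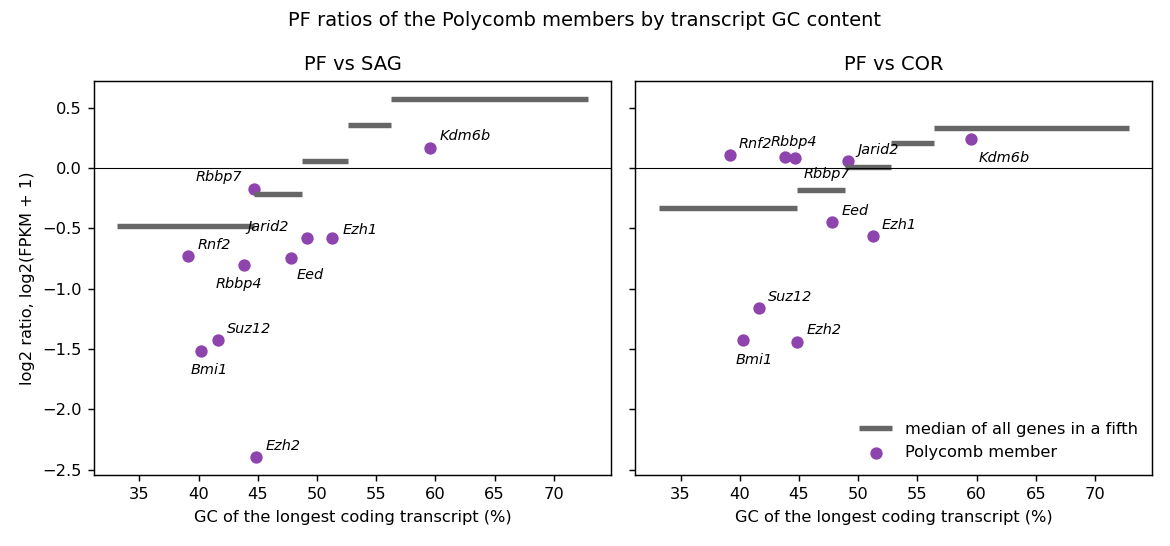
Log2 ratio on the log2(FPKM + 1) scale (vertical) against GC content of the longest coding transcript in percent (horizontal), in PF/SAG (left) and PF/COR (right). Purple points are the 10 members and grey bars the median of all genes at 5 FPKM or more in each quintile by GC content, which goes from -0.48 to 0.57 on the left. *Ezh2*, *Suz12*, *Bmi1*, *Eed*, *Ezh1* and *Kdm6b* lie below the bar of their GC content in both panels.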

How the data were processed

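RNA of CD51+;CD200+ cells was sequenced in 1 library from each of PF, SAG, COR and GP. Alignment by the authors was to mm9 with STAR 2.5.1b, followed by Cuffdiff of Cufflinks 2.2.1 with the Illumina iGenomes gene model, per the paper's methods and the submitters' processing notes. What the authors deposited is 1 FPKM value for each gene symbol and library. The library normalization within Cuffdiff and the number of fragments are not given in the sources used here.

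Samples were grouped by their labels. Log2 ratios of FPKM + 1 were computed for genes at 1 FPKM or more in at least 1 library compared, and a ratio of 3-fold or more was counted. With 1 library per tissue no test was made. Fragments per gene were estimated as FPKM times the length of the longest coding transcript, divided by the value of a single fragment, read as the lowest peak of FPKM times length over genes with 1 coding transcript. Lengths, GC content and positions are from GENCODE for mm9; promoters are RefSeq sequences for GRCm38.p6. All 10 members were named; of the other lists, genes past 3-fold between sutures at 5 FPKM or more and up to 4 of the most abundant genes were named, and the 5 genes nearest to *Ezh2*, of which 1 is not reported here. The members and lists were chosen with earlier results of these data known. The alternatives were a pseudocount of 0.1, scaling by median ratio, quantiles or *Gapdh*, other expression filters, a 2-fold limit and the order of libraries; corrections for GC content and length (lowess, span 0.3) were added after the data were seen. Python 3.11.15, numpy 2.4.6, pandas 2.3.3, statsmodels 0.14.6 and matplotlib 3.10.9 were used, and the steps were tested on simulated data.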

Additional observations from a re-analysis of the deposited data

How the results depend on the processing

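The log2 ratio of *Ezh2* kept its sign under each alternative run, from -2.74 to -1.96 in PF/SAG, from -1.71 to -1.15 in PF/COR and from -2.42 to -1.72 in PF/GP. With a pseudocount of 0.1 it passed 3-fold in PF/COR (-1.71). With that pseudocount, 3 members passed 3-fold in PF/SAG (27.4% of all genes), 3 in PF/COR (22.8%) and 2 in PF/GP (22.4%), as did 5 further Polycomb genes in PF/SAG, 5 in PF/COR and 1 in COR/SAG (15.8% of all genes), and 2 trithorax genes in PF/SAG; a smaller pseudocount by construction widens the ratios of low genes. At 2-fold in place of 3-fold, 3 members passed for each of PF/SAG, PF/COR and PF/GP.

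Among genes at 1 FPKM or more in every library compared, 0 further Polycomb genes passed 3-fold in PF/SAG (8.76% of all genes) and 1 in PF/COR (5.88%), with a PF/SAG median of 0.0036, and with a minimum of 5 FPKM in at least 1 library 1 passed in PF/COR (10.4%); fewer genes are compared there. Members among the nearest 5% of genes to *Ezh2* numbered 1 with the 5 FPKM minimum, which leaves out *Suz12*, and 0 after the GC correction, for which the cause was not tested. By the order of the libraries they were again 2, *Eed* and *Suz12*, in place of *Bmi1* and *Suz12*. Relative to *Gapdh* (281 FPKM in PF, 335 in COR, 389 in GP and 407 in SAG), which shifts the median of all genes by 0.47 in PF/SAG, 0.23 in PF/COR and 0.24 in COR/SAG, 2 S phase and mitosis genes passed 3-fold in PF/SAG (18.8% of all genes), and the PF/SAG ratio of *Rbbp7* turned to 0.36; after the GC correction it was 0.23. Scaling to *Gapdh* also took the share of genes past 3-fold that were higher in the first library from 42.3% to 66.0% in PF/SAG, from 58.3% to 70.2% in PF/COR, from 33.6% to 45.3% in COR/SAG and from 47.8% to 69.0% in PF/GP, and left 6 members highest in SAG. *Bmi1* was at 0.17 in COR/SAG under it and at 0.11 after the GC correction. The PF/GP ratios of *Rbbp4* and *Rnf2* turned to 0.28 and 0.25 under it. The ratios of *Ezh2* past 3-fold after adding 1 to each FPKM, those in PF/SAG and PF/GP, kept their sign under each alternative run. Genes of the other lists were not run singly. No paired analysis was possible because a tissue is represented by 1 library only, and leaving out a library leaves no comparison of that tissue. The shallow PF library limits the precision of low genes, with about 89 fragments for *Suz12*.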
